A study of Mus musculus with 6 samples.

Results

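Chromatin accessibility was described at the genes of the IL-4 receptor signal and its feedback, in macrophages grown from mouse bone marrow (BMDMs). The members were the sites of the deposited site table, in mm9, that lie inside 1 window around each of 4 genes. The windows covered 180 kb around Il4ra on chromosome 7, 120 kb around Stat6 on chromosome 10, 110 kb around Socs1 on chromosome 16 and 120 kb around Cish on chromosome 9. They held 149 of 578591 sites: 52 in the Il4ra window, 35 in the Stat6 window, 25 in the Socs1 window and 37 in the Cish window. No site lay across a window's edge. The windows were set by position and not by any measured value, and they are wider than the genes, so a site in a window is not thereby assigned to its gene. In the RefSeq gene order, Il4ra lies between Nsmce1 and Il21r, Stat6 between Lrp1 and Nab2, Socs1 between Clec16a and Tnp2, and Cish between Mapkapk3 and Hemk1.

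The measurement was ATAC-seq, in which a transposase inserts sequencing adapters into open DNA. Every library came from wild-type C57BL/6 BMDMs (C57BL/6J in the growth protocol) that had been differentiated from marrow in L929-conditioned medium, a source of MCSF (also called CSF1), and all 6 titles name Petri dishes, whereas the study's own legend for its ATAC-seq names tissue culture plates. The libraries without IL-4 were Untreated and DMSO, and those with it were IL-4 alone, DMSO + IL-4, MCSF + IL-4 and LatA + IL-4, each a group of 1. The IL-4 dose was 20 ng/ml and the time 24 hours. MCSF was used at 100 ng/ml. Latrunculin A (LatA), which binds actin monomers and blocks filament growth, was used at 1 µM, and DMSO is its solvent. LatA and MCSF were each present only together with IL-4, so their action without IL-4 was not measured here. The number of animals behind each library is not given in the sources used here. The labelled cell type was not checked against macrophage markers. The site table pairs no site with a gene, and the gene reference used is on GRCm38.p6, not on mm9. With 1 library per group every ratio below compares a pair of libraries, and its 95% exact (Clopper-Pearson) interval covers counting error only. In such bulk libraries, more cells with an open site and a site more open in each cell cannot be told apart.

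Il4ra encodes IL-4Rα, the receptor chain that binds IL-4 and is shared by the IL-4 and IL-13 receptors. Receptor-bound JAK kinases phosphorylate STAT6, the transcription factor encoded by Stat6, which then enters the nucleus and binds target genes. Socs1 and Cish encode SH2-domain proteins of the SOCS family, which are induced by STAT factors and dampen cytokine receptor signalling; SOCS1 inhibits JAK kinases and CIS, the Cish product, is best known as a STAT5 target. In macrophages this pathway drives the IL-4 response known as alternative activation.

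The promoters of the 4 genes are shown here because the windows are defined by these genes, and the sequences show how the genes differ before any accessibility is considered. Each run is the stretch before the annotated start, on the gene's strand, from RefSeq on GRCm38.p6, a later build than the mm9 of the sites. The runs lie at chr7:125552021-125552270 (Il4ra, plus strand), chr10:127642736-127642954 (Stat6, plus strand), chr16:10785537-10785786 (Socs1, minus strand) and chr9:107296409-107296658 (Cish, plus strand). These positions must not be compared with those of the sites. All 4 symbols were found in the table. On either strand, capitals mark GGGCGG (the core letters of a GC box), then CCGGAA (of an ETS factor site) and also GAGGAA (of a PU.1-type ETS site).
Il4ra: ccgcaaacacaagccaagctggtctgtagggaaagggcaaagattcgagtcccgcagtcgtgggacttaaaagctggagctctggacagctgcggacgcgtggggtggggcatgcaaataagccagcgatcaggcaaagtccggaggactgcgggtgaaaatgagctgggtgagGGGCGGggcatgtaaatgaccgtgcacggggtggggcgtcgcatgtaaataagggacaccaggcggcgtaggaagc
Stat6: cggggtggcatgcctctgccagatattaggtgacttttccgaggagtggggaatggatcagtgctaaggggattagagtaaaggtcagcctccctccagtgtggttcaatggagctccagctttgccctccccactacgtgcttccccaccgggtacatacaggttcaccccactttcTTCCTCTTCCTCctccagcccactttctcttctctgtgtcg
Socs1: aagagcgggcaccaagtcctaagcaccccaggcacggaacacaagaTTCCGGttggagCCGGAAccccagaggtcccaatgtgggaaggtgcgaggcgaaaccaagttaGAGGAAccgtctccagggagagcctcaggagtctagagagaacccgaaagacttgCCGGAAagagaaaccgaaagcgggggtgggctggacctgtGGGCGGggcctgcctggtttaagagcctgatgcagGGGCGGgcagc
Cish: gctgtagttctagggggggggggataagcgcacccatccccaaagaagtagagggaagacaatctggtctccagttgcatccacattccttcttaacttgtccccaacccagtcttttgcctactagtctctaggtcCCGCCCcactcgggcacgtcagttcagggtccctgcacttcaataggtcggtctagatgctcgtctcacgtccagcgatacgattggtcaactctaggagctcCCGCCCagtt

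The Il4ra run held 1 GGGCGG and neither ETS form. The Stat6 run held 2 GAGGAA, and was the one run of the 4 with no GGGCGG. The Socs1 run held 3 CCGGAA, 2 GGGCGG and 1 GAGGAA, and the Cish run held 2 GGGCGG. Of the 32851 promoters in the same table, 32.7% held GGGCGG in the 250 bases before the start, 12.0% held CCGGAA and 23.3% held GAGGAA, on either strand. The Stat6 run has 219 bases and the others 250, so its counts come from a shorter stretch. CpG count was 17 for Il4ra, 13 for Socs1, 10 for Cish and 5 for Stat6.

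STAT factors bind palindromes of the form TTC, a spacer and GAA, and STAT6 is known to prefer a spacer of 4 bases where most STATs use 3. Neither form, with a spacer of any 4 or any 3 bases, was found in the 4 runs, where 5.85% (spacer of 4) and 7.02% (spacer of 3) of all promoters held one before the start. A pair of matches with a spacer of 3 stood at the start of Cish itself, at chr9:107296656-107296681 of GRCm38.p6. It is shown because no other of the 4 promoters had such a match within 50 bases after the start; with those bases included, 8.3% of all promoters held a match with a spacer of 3. Capitals mark the matches, the first of which opens at the first transcribed base.
Cish start: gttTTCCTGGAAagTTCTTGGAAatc

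Reads in sites ranged from 12387332 in DMSO + IL-4 to 19889902 in Untreated. The 20 sites with the most reads held between 13.5% (LatA + IL-4) and 22.2% (DMSO) of a library's reads. Levels are given as normalized reads, which are the whole reads of a site divided by the library's effective size and multiplied by the geometric mean of the 6 sizes. Only sites whose mean over the libraries reached 20 normalized reads were compared. The words higher and lower in a count mean that the log2 ratio, with 1 read added, passed 1.5-fold. This left 76 of the 149 members (30 for Il4ra, 18 for Stat6, 10 for Socs1, 18 for Cish) out of 132057 sites compared in all.

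The 4 windows were richer in strong sites than the table as a whole. A mean of 20 or more was reached by 51.0% of the members and by 22.8% of all sites. Among the sites compared, the median level was 60.0 normalized reads in the windows and 32.4 over all sites. The 73 members below 20 had means from 0.778 to 18.9 normalized reads, with a median of 9.22. The members nearest the limit were an Il4ra site at 18.9 below it and a Socs1 site at 20.1 above it. The filter uses the 6-library mean, so a site low without IL-4 can pass through the other libraries: 61 of the 76 also reached 20 as the mean of Untreated and DMSO alone.

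**Figure D1:**
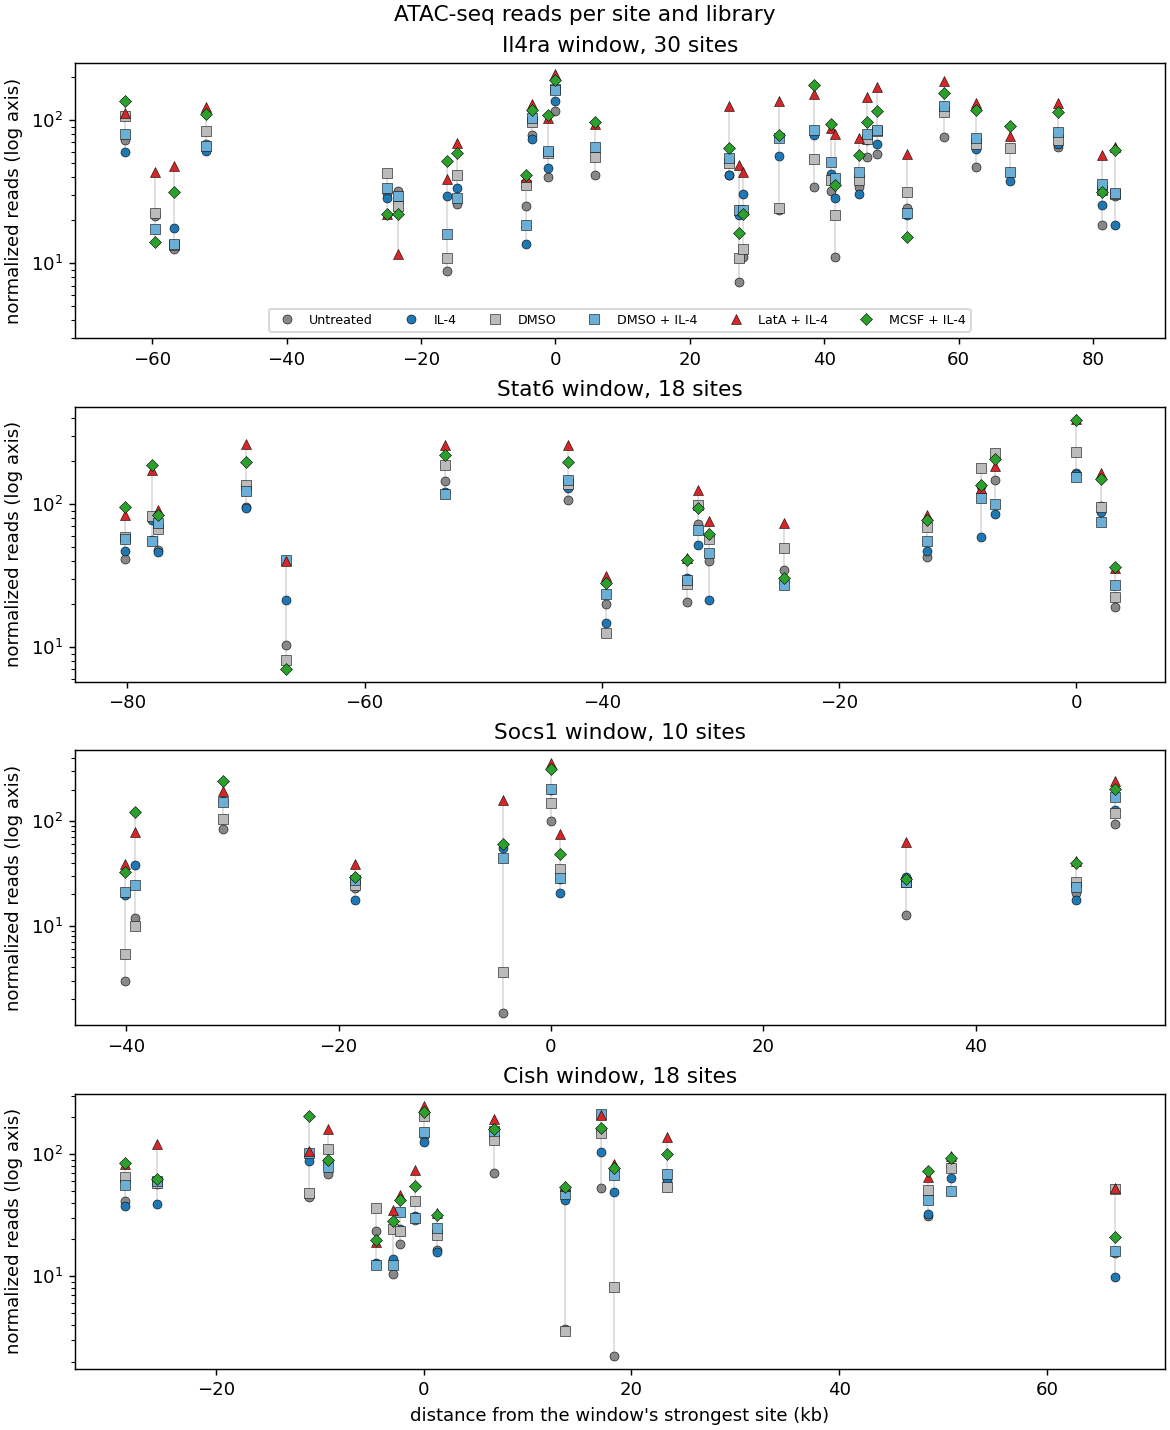
Normalized reads (log axis) of each compared site in each of the 6 libraries, by distance in kb from the strongest site of its window, for the Il4ra (30 sites), Stat6 (18), Socs1 (10) and Cish (18) windows. Each column of points is 1 site and each symbol 1 library; the Socs1 site at -4.53 kb and the Cish sites at 13.6 and 18.4 kb show Untreated and DMSO far below the 4 libraries with IL-4, and red triangles (LatA + IL-4) top most columns.

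Summed over all of its sites, with no filter, the Socs1 window had more reads with IL-4 in both vehicle settings and the Stat6 window had fewer. Untreated had a Socs1 sum of 454 normalized reads and IL-4 of 753, while DMSO had 580 and DMSO + IL-4 had 811. The ratio was 1.66 (95% interval 1.49 to 1.85) without DMSO and 1.40 (1.25 to 1.56) with it. The Stat6 sum of Untreated was 1418 and that of IL-4 was 1271, and the sums with the solvent were 1963 (DMSO) and 1515 (DMSO + IL-4), at ratios of 0.896 (0.835 to 0.962) and 0.772 (0.719 to 0.828).

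The receptor and Cish sums were higher with IL-4 beyond counting error without DMSO, but not with it. Without DMSO the Il4ra sum was 1339 (Untreated) and 1617 (IL-4), and with DMSO it was 1748 and 1854. The IL-4 ratio was 1.21 (1.13 to 1.29) without DMSO and 1.06 (0.991 to 1.14) with it. The Cish sum was 902, 1163, 1330 and 1394 in the same order, with ratios of 1.29 (1.19 to 1.40) and 1.05 (0.969 to 1.13). For both windows the interval with DMSO included 1, so a difference over the whole window was not detectable there by counting error alone. The Cish result with DMSO rests on 1 site: without the strongest site the ratio was 1.10 (1.01 to 1.20), and its interval no longer included 1.

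LatA + IL-4 gave the highest sum at all 4 windows and MCSF + IL-4 the second highest. The LatA + IL-4 sums were 3108 (Il4ra), 2763 (Stat6), 1475 (Socs1) and 2098 (Cish). The MCSF + IL-4 sums were 2624, 2463, 1255 and 1823.

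**Figure D2:**
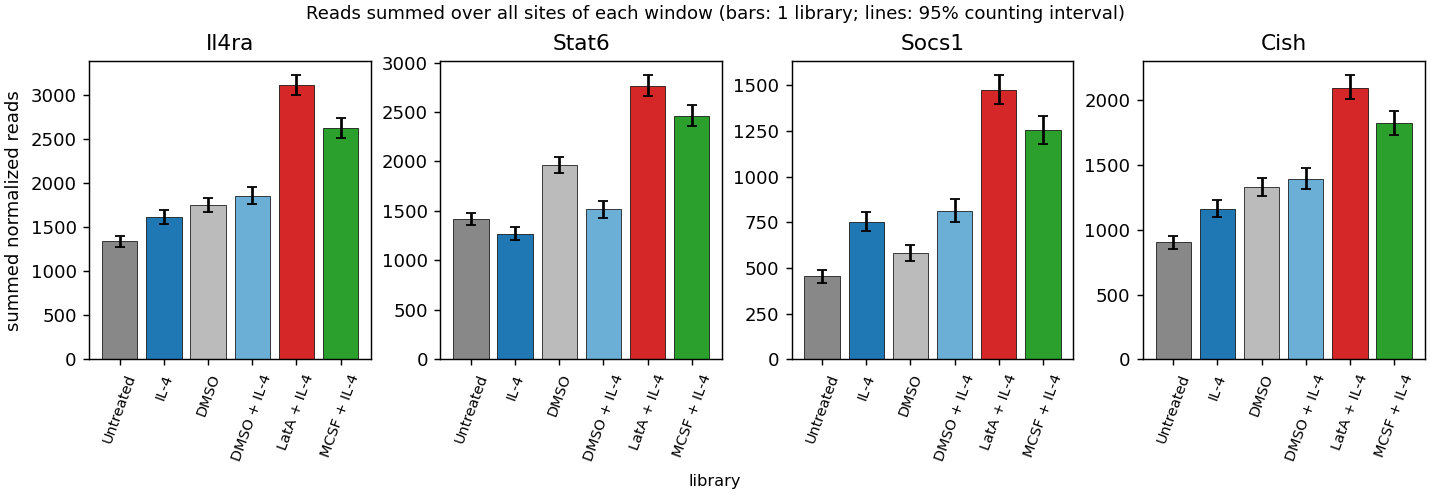
Normalized reads summed over all sites of each window (y axis) in each library (x axis). Bars are single libraries and lines are 95% counting intervals; in the Stat6 panel both libraries with IL-4 alone or with DMSO stand below their controls (1271 against 1418 and 1515 against 1963), and in the Socs1 panel both stand above (753 against 454 and 811 against 580).

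The Il4ra window held its strongest site at chr7:132698884-132699426, with a mean of 163 normalized reads, or 300.3 per kb. Untreated had 116 and DMSO 164, against 135 for IL-4 and 161 for DMSO + IL-4. MCSF + IL-4 had 191 and LatA + IL-4 had 211, the highest. The IL-4 ratios were 1.17 (0.921 to 1.48) and, with DMSO, 0.982 (0.778 to 1.24), so neither stood beyond counting error. The next in strength were chr7:132756306-132757547 (mean 129) and chr7:132695543-132695883 (mean 99.6), and neither passed 1.5-fold in both IL-4 comparisons. The 3 strongest sites together held 19.1% of the window's reads, against 31.1% in the Stat6, 32.4% in the Cish and 60.3% in the Socs1 window, so reads at Il4ra were spread over many sites.

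In the Il4ra window 5 sites between 27.4 and 41.6 kb above the strongest site in mm9 coordinates were higher with IL-4 in both comparisons. The clearest was chr7:132732185-132732675 at 33.3 kb. Untreated had 23.7 normalized reads and DMSO 24.3, while IL-4 had 55.9 and DMSO + IL-4 had 74.3. Both libraries without IL-4 thus lay below both with it, at ratios of 2.36 (1.51 to 3.77) and 3.05 (1.91 to 5.00). LatA + IL-4 had 136 there and MCSF + IL-4 had 78.5, and a peak was called in all 6 libraries with enrichments from 5.80 to 20.9.

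A close pair of weaker Il4ra sites lay at 27.4 and 27.9 kb. The site chr7:132726307-132726754 had 7.40 (Untreated) and 10.8 (DMSO) normalized reads without IL-4, and 21.6 (IL-4), 23.5 (DMSO + IL-4), 16.4 (MCSF + IL-4) and 48.5 (LatA + IL-4) with it. Its neighbour chr7:132726873-132727145 had 11.1, 12.6, 30.4, 23.5, 22.3 and 43.2 in that order. At both, MCSF + IL-4 lay below the IL-4 library, by 0.38 and 0.43 on the log2 scale, a difference within counting error at each. Their log2 IL-4 ratios were 1.43 and 1.38 without DMSO and 1.05 and 0.85 with it. The ratios with DMSO rest on 19 against 12 and 19 against 14 reads, and the counting intervals of the levels overlapped at both sites. The remaining sites of the 5, chr7:132737370-132737769 and chr7:132740655-132740954, had log2 ratios of 1.18 and 1.28 without DMSO and 0.67 and 0.84 with it.

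One Il4ra site was lower with IL-4 in both comparisons. This was chr7:132694667-132694858, where Untreated (25.2 normalized reads) and DMSO (35.1) lay above IL-4 (13.7) and DMSO + IL-4 (18.6). It was 1.83 times lower (0.957 to 3.69) without DMSO and 1.89 times lower (1.02 to 3.69) with it, so the first interval included no change. LatA + IL-4 had 40.1 and MCSF + IL-4 had 41.0, above all other libraries. The Il4ra sites chr7:132646869-132647552 and chr7:132782150-132782731 were likewise past 1.5-fold for both LatA and MCSF, at log2 ratios of 0.90 and 0.84, and of 1.03 and 1.68.

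Stat6 is the gene of the pathway's own transcription factor, and a pair of strong sites in its window was lower with IL-4. The strongest site of all 4 windows was here, at chr10:127111692-127112203, with a mean of 250.3 normalized reads (489 per kb). Untreated had 166 and DMSO 233, IL-4 had 163 and DMSO + IL-4 had 155. MCSF + IL-4 had 390.1 and LatA + IL-4 had 394. The IL-4 ratio was 0.979 (0.796 to 1.20) without DMSO, and with DMSO the site was 1.51 times lower (1.21 to 1.88). LatA + IL-4 and MCSF + IL-4 lay above the other 4 libraries, at ratios of 2.55 (2.08 to 3.15) and 2.39 (1.98 to 2.90) to their own controls.

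A neighbouring pair of strong Stat6 sites, at -8.02 and -6.83 kb from that site, was lower with IL-4 in both comparisons. The site chr10:127103558-127104293 had 135 (Untreated) and 179 (DMSO) normalized reads without IL-4, and 58.9 (IL-4) and 111 (DMSO + IL-4) with it. It was 2.29 times lower (1.70 to 3.11) without DMSO and 1.61 times lower (1.25 to 2.09) with it. The site chr10:127104533-127105701 had 149 and 229.6 without IL-4, and 85.4 and 100.3 with it, which was 1.74 times lower (1.35 to 2.27) and 2.29 times lower (1.78 to 2.98). Peaks were called at both in all 6 libraries.

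At this Stat6 pair MCSF + IL-4 was above IL-4, as it was at all 13 Stat6 sites with a mean of at least 50. The median log2 ratio of those 13 was 1.01, against 0.54 for all such sites. MCSF + IL-4 was near Untreated (135) at the first site, and above Untreated (149, interval 129 to 171) at the other. MCSF + IL-4 had 137 and 208 normalized reads, and LatA + IL-4 had 130 and 187. The MCSF ratio to IL-4 was 2.33 (1.69 to 3.23) at the first site and 2.44 (1.88 to 3.19) at the other. The LatA ratio to DMSO + IL-4 was 1.16 (0.880 to 1.55) and 1.86 (1.42 to 2.45), so at the first site LatA was not distinguishable from its control. The MCSF and IL-4 comparisons share the IL-4 library, and the LatA comparison shares DMSO + IL-4, so these values are given side by side only.

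Several Stat6 sites were higher with both LatA and MCSF. The next strongest sites, chr10:127057975-127059474 (mean 176) and chr10:127068730-127069390 (mean 164), were past 1.5-fold higher for both treatments, with LatA log2 ratios of 1.12 and 0.82 and MCSF log2 ratios of 0.85 and 0.61. So were chr10:127033670-127034309 (1.62 and 1.26 for LatA and MCSF) and chr10:127041480-127042364 (1.08 and 1.07).

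A single Stat6 site was higher with IL-4 in both comparisons. This weak site, chr10:127045166-127045565, had 10.4 (Untreated) and 8.10 (DMSO) normalized reads without IL-4, and 21.6 (IL-4) and 40.8 (DMSO + IL-4) with it. LatA + IL-4 had 40.1, but MCSF + IL-4 had 7.03, the lowest of the 6. MCSF + IL-4 was 3.07 times lower (1.21 to 9.26) than IL-4, which was the largest difference in that direction among the 76 sites. Peaks were called there in IL-4, DMSO + IL-4 and LatA + IL-4 and in no other library.

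Socs1, whose product blocks JAK kinases, had the site with the largest IL-4 ratio without DMSO of the 4 windows. At chr16:10780832-10781552, -4.53 kb from the window's strongest site, Untreated had 1.48 normalized reads (2 reads) and DMSO had 3.60 (4 reads). IL-4 had 55.0 (56 reads) and DMSO + IL-4 had 44.6 (36 reads). The groups did not overlap, and the ratios were 37.1 (9.81 to 314) and 12.4 (4.43 to 47.8), with wide intervals because so few reads lay below them. It passed the filter on reads through the libraries with IL-4.

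This Socs1 site was higher still in LatA + IL-4, at 157 normalized reads, while MCSF + IL-4 had 60.9. The LatA ratio to DMSO + IL-4 was 3.53 (2.44 to 5.23), the MCSF ratio to IL-4 was 1.11 (0.745 to 1.65). Its peaks were weak: IL-4 had an enrichment of 2.76, MCSF + IL-4 of 3.40 and LatA + IL-4 of 3.89, and no peak was called in DMSO + IL-4 with its 36 reads.

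A Socs1 pair about 40 kb below the strongest site was also higher with IL-4 in both comparisons. The site chr16:10745391-10745784 (-40.1 kb) had 2.96 normalized reads in Untreated, 5.40 in DMSO, 19.6 in IL-4 and 21.0 in DMSO + IL-4. The site chr16:10746118-10746894 (-39.2 kb) had 11.8 and 9.91 without IL-4 and 38.3 and 24.8 with it. LatA + IL-4 had 39.0 and 78.0 at the pair, and MCSF + IL-4 had 32.8 and 123. The second of them was past 1.5-fold in all 4 of these comparisons, with log2 ratios of 1.61 and 1.24 for IL-4, 1.62 for LatA and 1.66 for MCSF. At both sites a peak was called in the 4 libraries with IL-4 and in neither of the others.

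The strongest Socs1 site, chr16:10785066-10786371, had 99.1 normalized reads when Untreated and 198 with IL-4 alone, a ratio of 2.00 (1.60 to 2.51). It had 149 in DMSO and 202 in DMSO + IL-4, a ratio of 1.36 (1.09 to 1.70), so it passed 1.5-fold only without DMSO. LatA + IL-4 had 362 and MCSF + IL-4 had 317. The other strong Socs1 sites had smaller IL-4 ratios without DMSO, and slightly larger ones with it. At chr16:10754451-10755243 the IL-4 log2 ratios were 0.88 and 0.55, and at chr16:10838469-10839204 they were 0.43 and 0.51. Peak summits at chr16:10754451-10755243 fell within 4 bp of each other in all 6 libraries. The weaker sites chr16:10786424-10786765 and chr16:10835017-10835283 were lower with IL-4 by less than 1.5-fold but past it for LatA (log2 1.36 and 0.78) and MCSF (1.18 and 1.13).

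Cish held a pair of sites with very few reads without IL-4. At chr9:107205436-107205862, 13.6 kb above the window's strongest site, Untreated had 3.70 normalized reads (5 reads) and DMSO had 3.60 (4 reads). IL-4 had 42.2, DMSO + IL-4 had 47.0, LatA + IL-4 had 54.8 and MCSF + IL-4 had 53.9. The 4 libraries with IL-4 thus differed little from each other and lay far above both others, at ratios of 11.4 (4.53 to 36.9) without DMSO and 13.1 (4.70 to 50.4) with it.

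The other Cish site of the pair, chr9:107210201-107210707 at 18.4 kb, had 2.22 normalized reads (3 reads) in Untreated and 8.10 (9 reads) in DMSO. With IL-4 it had 49.1 (IL-4), 66.8 (DMSO + IL-4), 77.3 (MCSF + IL-4) and 83.3 (LatA + IL-4). The IL-4 ratios were 22.1 (7.14 to 111) and 8.25 (4.04 to 19.0). At both sites a peak was called in all 4 libraries with IL-4, with enrichments from 3.63 to 5.09, and in neither library without it.

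Between them lay a strong Cish site, chr9:107208461-107209886, whose DMSO ratios were larger than its IL-4 ratios. Untreated had 52.5 normalized reads and DMSO 148, while IL-4 had 104 and DMSO + IL-4 had 213. The DMSO ratio was 2.81 (2.12 to 3.77) without IL-4 and 2.05 (1.60 to 2.63) with it, and the IL-4 ratio was 1.98 (1.45 to 2.71) without DMSO and 1.44 (1.16 to 1.80) with it. LatA + IL-4 had 209, like its DMSO + IL-4 control. MCSF + IL-4 had 163, which was above IL-4 (log2 0.64) and below DMSO + IL-4 (log2 -0.38), so the sign of the MCSF difference turned with the control.

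A further Cish site, chr9:107180818-107181236, was higher with IL-4 at an intermediate size, with 44.4 normalized reads in Untreated, 47.7 in DMSO, 87.4 in IL-4 and 103 in DMSO + IL-4. MCSF + IL-4 had 206 and LatA + IL-4 had 107. The MCSF ratio to IL-4 was 2.36 (1.82 to 3.08) and the LatA log2 ratio to DMSO + IL-4 was 0.05.

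The strongest Cish site, chr9:107191773-107192396, had a mean of 182 normalized reads, with 141 in Untreated against 126 with IL-4, and 204 in DMSO against 152 with both. Its log2 ratios were -0.16 and -0.42, neither past 1.5-fold. The site chr9:107198330-107199304 had 69.6 in Untreated and between 131 and 195 in the other 5 libraries. The Cish site chr9:107258410-107258850 was lower with IL-4 in both comparisons, with 15.5 against 9.82 and 51.3 against 16.1 normalized reads. Without DMSO this was 21 against 10 reads, and the counting intervals of the levels overlapped (9.62 to 23.8 and 4.71 to 18.1). LatA + IL-4 had 52.7 there and MCSF + IL-4 had 21.1. A weak Cish site named after its values were seen, chr9:107187437-107187587, was also lower in both, by 0.84 and 1.47 on the log2 scale.

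**Figure D3:**
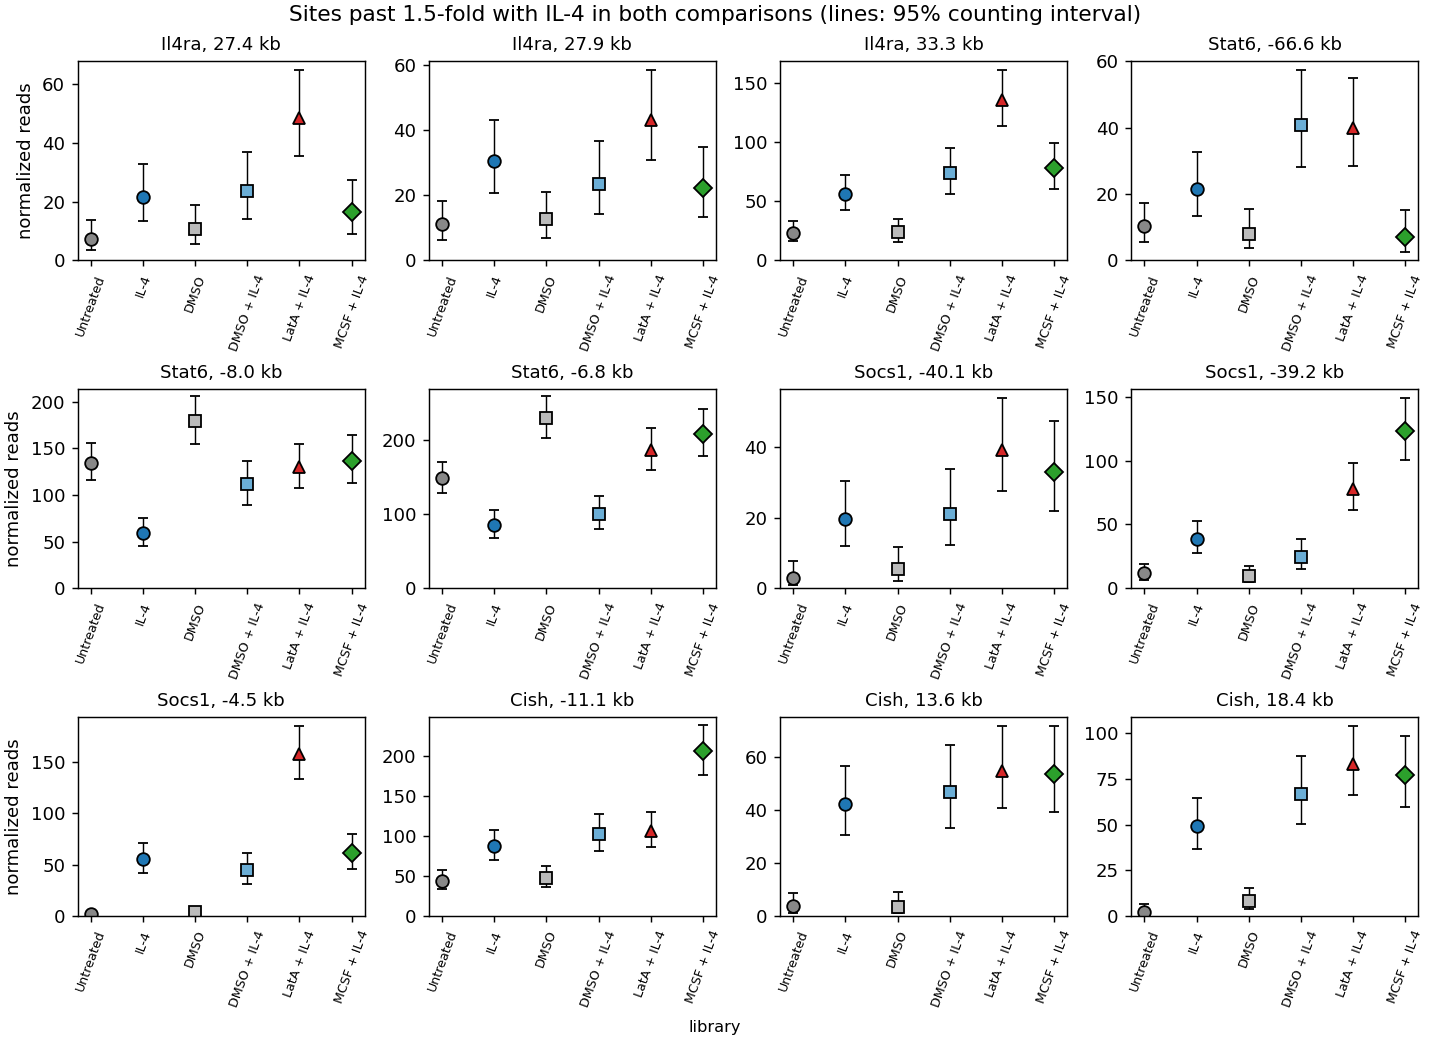
Normalized reads (y axis) in each library (x axis) at 12 of the sites that passed 1.5-fold with the same sign in the IL-4 comparisons without and with DMSO, each titled by its window and its distance from the window's strongest site. Points are single libraries and lines 95% counting intervals; the Socs1 panel at -4.5 kb and the Cish panels at 13.6 and 18.4 kb have Untreated and DMSO near 0, and the Stat6 panels at -8.0 and -6.8 kb have both IL-4 libraries lowest.

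Across the 76 sites, IL-4 alone was higher than Untreated at 20, against a share of 20.8% of all 132057 sites compared, and lower at 7, against 8.88%. DMSO + IL-4 was higher than DMSO at 13, where 16.6% of all sites were, and lower at 11, where 12.8% were. Scaled by a library's total reads, those counts with DMSO were 15 and 8, where 18.9% and 10.6% of all sites were. By this measure the members were close to the background in each comparison. The median log2 ratio was 0.17 over the members and 0.10 over all compared sites without DMSO, and 0.08 and 0.01 with it.

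The IL-4 comparisons share no library, and 12 members were higher in both (8.73% of all sites were) and 5 lower in both (2.38%). The higher sites were 5 for Il4ra, 1 for Stat6, 3 for Socs1 and 3 for Cish. The lower sites were 1 for Il4ra, 2 for Stat6 and 2 for Cish, and Socs1 had none. Of the 12 higher sites, 9 had a mean under 20 over Untreated and DMSO and therefore passed the filter through libraries with IL-4. Among the 42 members with a mean of at least 50, 4 were higher in both, against 10.3% of all such sites, and 2 lower, against 2.29%. The windows differed in their middle: the median log2 ratio of Socs1 was 0.94 without DMSO and 0.47 with it, and that of Stat6 was -0.04 and -0.32.

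All 4 libraries with IL-4 lay above both without it at 24 members (17.7% of all compared sites did), of which 10 were at Il4ra, 2 at Stat6, 6 at Socs1 and 6 at Cish. This count includes LatA + IL-4 and MCSF + IL-4, which lay above the other 4 libraries at 58 members (30.1% of all compared sites). It also includes members that passed the filter through libraries with IL-4. The reverse for IL-4 and DMSO + IL-4, both below Untreated and DMSO, held at 12 members (17% of all compared sites), of which 7 were at Stat6 and none at Socs1. It leaves out LatA + IL-4 and MCSF + IL-4, so the counts of 24 and 12 are unlike measures.

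**Figure D4:**
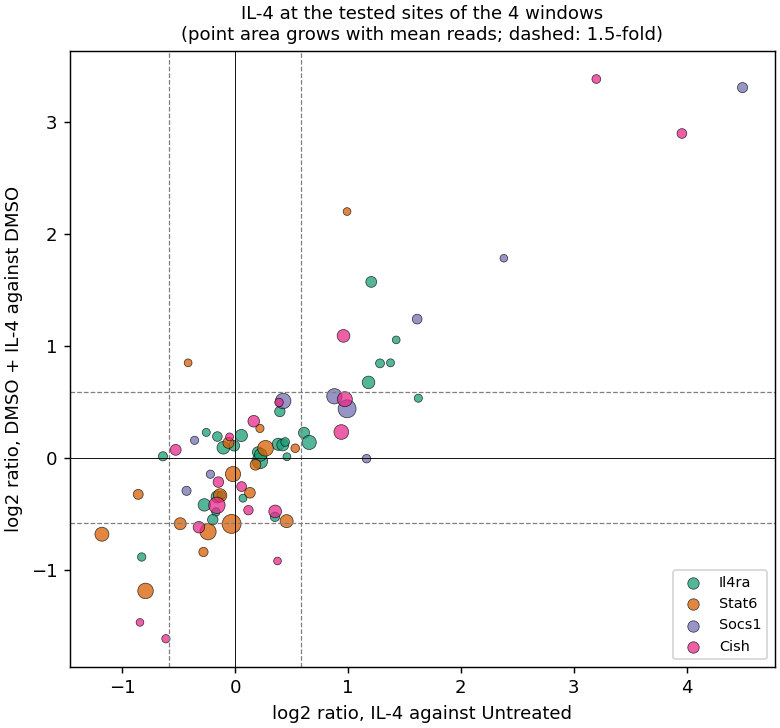
Log2 ratio of IL-4 to Untreated (x axis) against that of DMSO + IL-4 to DMSO (y axis) for the 76 compared sites, coloured by window, with point area growing with mean reads and dashed lines at 1.5-fold. A Socs1 site (4.50, 3.31) and a pair of Cish sites (3.96, 2.90 and 3.20, 3.38) stand at the upper right, and the large Stat6 points at the lower left are the pair lower with IL-4.

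A model with an IL-4 term and a DMSO term was fitted to the 4 libraries without LatA or MCSF, with edgeR's quasi-likelihood test over all compared sites and Benjamini-Hochberg adjustment. It has 1 residual degree of freedom and takes the pairs with and without DMSO as repeats of the IL-4 effect. It called 12 members higher and 2 lower, where 4.85% and 0.81% of all sites were called, and 25 members had an unadjusted p under 0.05, as did 16.6% of all sites. Of the members called, 9 of the 12 higher and both lower ones were also past 1.5-fold in both comparisons. Socs1 had 5 of its 10 sites called higher, Cish 4 of 18, Il4ra 2 of 30 and Stat6 1 of 18, and both lower calls were at Stat6. The higher calls include the Socs1 sites at -4.53, -40.1 and -39.2 kb, the Cish sites at 13.6 and 18.4 kb and the Stat6 site at -66.6 kb. Each of these had under 20 normalized reads in both Untreated and DMSO and passed the filter through libraries with IL-4. The higher counts are therefore not independent of the filter.

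The lowest adjusted p among the 76 members was, in edgeR, that of the Socs1 site at -4.53 kb, 6.1e-05, with a log2 effect of 4.29 (SE 0.48). The Cish sites at 18.4 and 13.6 kb followed, at edgeR adjusted p of 9.4e-05 and 1.2e-04 and log2 effects of 3.55 (SE 0.42) and 3.56 (SE 0.44). These 3 sites had between 2 and 9 reads in each of Untreated and DMSO and passed the filter through libraries with IL-4. The lower Stat6 sites had log2 effects of -0.998 (SE 0.20) and -0.926 (SE 0.21) and edgeR adjusted p of 0.0054 and 0.013. The Il4ra site at 33.3 kb had a log2 effect of 1.42 (SE 0.30) and an edgeR adjusted p of 0.0073.

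LatA + IL-4 was higher than DMSO + IL-4 at 50 of the 76 sites (30.1% of all compared sites) and lower at 1 (15.7%). MCSF + IL-4 was higher than IL-4 at 54 (29.2%) and lower at 2 (14.9%). Against the other library with IL-4, DMSO + IL-4, MCSF + IL-4 was higher at 32 (24.9%), and against IL-4 alone LatA + IL-4 was higher at 64 (34.4%). These comparisons share no library, and 37 members were higher in both (15.4% of all sites) and 0 lower in both (4.36%). The 37 became 22 (7.39% of all sites) on a scale without the largest sites and 15 (7.93%) with the trend over mean reads removed, and with the control libraries exchanged it was 27 (14.4%). Members higher by more than 1.5-fold were found in every window, for LatA 23 at Il4ra, 11 at Stat6, 7 at Socs1 and 9 at Cish, and for MCSF 17, 15, 8 and 14.

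Part of this distance from the background moved with the strength of the sites. Among sites with a mean of at least 50, LatA was higher at 28 of 42 members and at 44.7% of all sites, MCSF at 33 and 46%, and both at 23 and 27.5%. The median log2 ratio of these members was 0.81 for LatA and 0.75 for MCSF, where all such sites had 0.53 and 0.54. With the trend of the ratio over mean reads taken out, the medians of these 42 members were 0.29 for LatA and 0.19 for MCSF, and those of all 76 were 0.41 and 0.32. Of the 76, 25 were then higher for LatA (19.2% of all compared sites), 30 for MCSF (19.6%) and 15 for both (7.93%). The 20 largest sites held the smallest share of reads in these libraries, 15.2% (MCSF + IL-4) and 13.5% (LatA + IL-4), and the part of this in the result was not tested. On a scale that leaves out sites whose mean reached 1000, the median over all compared sites moved by -0.19 (LatA) and -0.20 (MCSF), and 41 members were higher for LatA (19.9% of all compared sites), 35 for MCSF (19.3%) and 22 for both (7.39%).

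LatA + IL-4 was the highest of the 6 libraries at 53 of the 76 sites (31.8% of all compared sites) and MCSF + IL-4 at 16 (21%). Both lay above the other 4 libraries at 58 sites, and 30.1% of all compared sites did so. At a mean of at least 50 this was 37 of 42 members and 56% of all such sites. Among the sites higher with IL-4 there were exceptions. The Il4ra pair at 27.4 and 27.9 kb and the weak Stat6 site at -66.6 kb had MCSF + IL-4 below IL-4, at the Il4ra pair within counting error (ratios 0.759, 0.359 to 1.55, and 0.731, 0.390 to 1.34), and the Cish site at -11.1 kb had LatA + IL-4 level with its control.

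The 12 members higher with IL-4 in both comparisons had LatA log2 ratios from -0.03 to 1.80 (median 0.86), of which 8 were past 1.5-fold higher and 0 lower. Over the whole series, 11528 compared sites met the same IL-4 rule, of which 28.7% were higher and 10.7% lower for LatA, with a median of 0.30. The 12 members' MCSF log2 ratios ran from -1.49 to 1.66 (median 0.41), with 5 higher and 1 lower, where 47.8% and 9.8% of those sites were and their median was 0.55. The 5 members lower with IL-4 had medians of 0.89 for LatA and 1.20 for MCSF, and all 3137 sites of that kind had 0.82 and 0.72. These comparisons share the libraries with IL-4 as controls, so the values are given side by side only. At none of the 3 Socs1 sites and none of the 3 Cish sites that were higher with IL-4 was LatA + IL-4 or MCSF + IL-4 below its control.

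**Figure D5:**
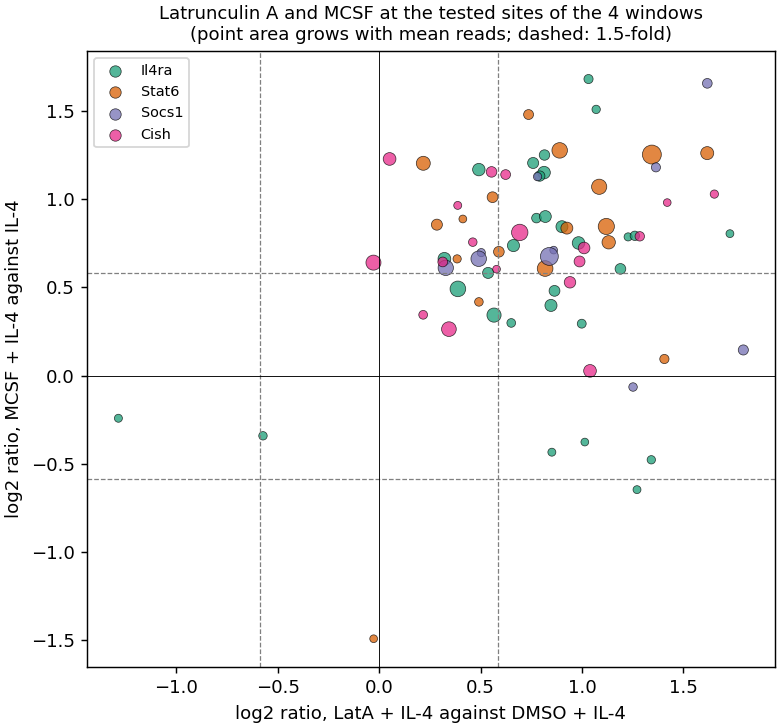
Log2 ratio of LatA + IL-4 to DMSO + IL-4 (x axis) against that of MCSF + IL-4 to IL-4 (y axis) for the 76 compared sites, coloured by window, with point area growing with mean reads and dashed lines at 1.5-fold. Most points lie in the upper right quadrant, 37 of them past both lines; the lowest point is the weak Stat6 site at -66.6 kb (-0.03, -1.49).

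The solvent comparison depended on the scale. DMSO was higher than Untreated at 18 of 76 (16.8% of all sites) and lower at 1 (7.24%). With total reads as the scale, with total reads outside the largest sites, and with the trend over mean reads removed, the higher count was 9 each time, where 10.8%, 11.3% and 10.1% of all sites were higher. On the scale used here the sums of the windows were higher by 1.31 (Il4ra), 1.38 (Stat6), 1.28 (Socs1) and 1.47 times (Cish). DMSO + IL-4 was higher than IL-4 at 11 (11.2%) and lower at 2 (9.8%). The median log2 ratio of DMSO to Untreated was 0.43 over the members and 0.18 over all sites. Untreated, the deepest library, was the lowest of the 6 at 39 members and at 29.9% of all compared sites.

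Peaks had been called by the authors in each library apart. Of the 149 members, 80 (Untreated) and 77 (DMSO) were overlapped by a peak without IL-4, where 43.4% and 37.2% of all 578591 sites were. With IL-4 the members with a peak were 82 (IL-4), 88 (DMSO + IL-4), 88 (MCSF + IL-4) and 102 (LatA + IL-4), and the shares of all sites in that order were 37.4%, 36.4%, 37.2% and 36.5%. At 54 members a peak was called in all 6 libraries (11.6% of all sites), at 39 in 1 library (41.3%) and at 8 in none (9.13%). At 6 members all 4 libraries with IL-4 and neither of the others had one, as had 1.17% of all sites. At 2 members, 1 at Stat6 and 1 at Cish, both libraries without IL-4 and none with it had one, as had 1.9% of all sites. The members are richer in strong sites than the table as a whole. Of the 6, besides the Socs1 pair near -40 kb and the Cish pair, the others were the Il4ra sites chr7:132682841-132683231 and chr7:132717469-132717759. The first of these had 8.88 (Untreated) and 10.8 (DMSO) normalized reads without IL-4, and 29.4 (IL-4), 16.1 (DMSO + IL-4), 51.5 (MCSF + IL-4) and 39.0 (LatA + IL-4) with it. The second had 11.8 normalized reads in Untreated and 10.8 in DMSO, against 15.7 in IL-4 and 13.6 in DMSO + IL-4.

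The sites whose levels most resembled each window's strongest site over the 6 libraries were named by Pearson's r of log2 levels, as a description. For Il4ra these were chr7:132761492-132761983 (r = 0.965) and chr7:132746661-132747219 (r = 0.961). For Stat6 they were chr10:127033670-127034309 (0.968) and chr10:127057975-127059474 (0.962), and for Socs1 chr16:10838469-10839204 (0.963) and chr16:10754451-10755243 (0.952). For Cish they were chr9:107163102-107163563 (0.964) and chr9:107166222-107166707 (0.782). The median r over the candidate sites was 0.894 for Il4ra, 0.889 for Stat6, 0.952 for Socs1 and 0.718 for Cish, over 15, 12, 3 and 8 sites. The points are the same 6 libraries in every case and share their depth and scale.

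Of the 73 members under the filter, 11 were past 1.5-fold higher in both IL-4 comparisons (8.64% of all sites under the filter were) and 6 lower (8.2%), at means where a few reads decide a ratio. A Cish site named after its values were seen, chr9:107197991-107198198, had 2 reads (Untreated) and 1 read (DMSO) without IL-4, and between 12 and 18 reads in each library with it. A Stat6 site, chr10:127074732-127075278, had 57 reads in DMSO and 23 in LatA + IL-4 but between 1 and 4 in the other libraries. An Il4ra site, chr7:132777951-132778352, had 49 reads in MCSF + IL-4 and between 2 and 13 elsewhere. Both were also chosen after their values were seen.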

How the data were processed

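The data were 6 ATAC-seq libraries of BMDMs, 1 per group. Per the study's methods, the authors trimmed paired-end reads with Cutadapt, aligned them to mm9 with Bowtie2 (several alignments per read allowed), removed duplicates with Picard and blacklisted and mitochondrial reads, called peaks per library with macs2 on shifted read ends, and counted reads per site with featureCounts. Versions are not given in the sources used here. Multiple alignments can add reads at repeated sequence.

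The deposited signal of each site is a CPM value scaled with TMM factors by the authors in edgeR. Dividing by the smallest step of each library gave whole reads for 100% of values (within 0.001 reads). The deposited peak lists give a fold enrichment over local background, used to describe peaks, and a −log10 q-value, used as a stricter threshold. Their score column was deposited by the authors as a whole-number form of that value and was not used. No per-sample column was left out.

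From the files, normalized reads, ratios with 1 read added, exact intervals and counts past 1.5-fold were computed for sites with a mean of at least 20 (Python 3.11.15, numpy 2.4.6, pandas 2.3.3, scipy 1.17.1, matplotlib 3.10.9). That filter stands for 16.2 to 27.0 reads per library. There are no replicates, so no main result has a test; an additive edgeR model (4.0.16, R 4.3.3) of 4 libraries is an alternative. Scripts were tested on simulated data. Intervals cover counting error only, since each group has 1 library. Reads carry no molecular identifiers. Peaks were joined to sites by at least 1 bp. Positions count from 1.

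The sites named are, per window, the 3 with the highest mean, up to 3 past 1.5-fold the same way in both IL-4 comparisons, and up to 3 past it for both LatA and MCSF, ranked by the smaller ratio. They number 34. Named outside this rule are the Il4ra sites chr7:132737370-132737769 and chr7:132740655-132740954, also higher in both IL-4 comparisons, and the sites given for their peak pattern or their likeness. The others are marked as chosen after their values were seen. Members and lists were chosen with earlier results of these data known. Other genes of the pathway and gene starts in mm9 are not analysed here, because the table pairs no site with a gene and the reference used is GRCm38.p6.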

Additional observations from a re-analysis of the deposited data

Results flagged for a closer look

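Each of these sites had IL-4 log2 ratios of opposite sign without and with DMSO, with 1 library per group, so the difference was not tested. The largest was at the Cish site chr9:107189067-107189263, with 0.38 without DMSO and -0.92 with it, a difference of -1.30 (with DMSO minus without). The Stat6 site chr10:127033670-127034309 had 0.46 and -0.56, a difference of -1.02. The Il4ra site chr7:132782150-132782731 had -0.64 and 0.01, a difference of 0.65. The Cish site chr9:107191102-107191338 had 0.12 and -0.47, a difference of -0.58. The strongest Il4ra site, chr7:132698884-132699426, had 0.22 and -0.03, a difference of -0.25, and the Il4ra site chr7:132695543-132695883 had -0.10 and 0.09, a difference of 0.20. The 95% counting interval of every one of these IL-4 ratios included 1, except that of the Stat6 site with DMSO, a ratio of 0.672 (0.460 to 0.970).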

How the results depend on the processing

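The 76 members gave 16 counts, each under up to 9 other settings. Values follow the order IL-4, IL-4 with DMSO, DMSO, DMSO with IL-4, LatA, MCSF. Counts that moved by more than 1.5 times are all included, and shares in parentheses are those of all compared sites.

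At a 2-fold threshold the members higher were 12, 9, 4, 2, 24 and 21 (9.32, 7.21, 3.88, 2.99, 11.5 and 11.8%), and those lower 1, 3, 0, 0, 1 and 1 (2.39, 3.73, 2.07, 3.05, 5.77 and 5.08%). Higher and lower in both IL-4 comparisons were then 7 (3.93%) and 0 (0.426%), and higher for both LatA and MCSF 8 (2.86%). With a mean of at least 50 reads, 10, 4, 8, 5, 28 and 33 were higher (21.9, 13.6, 16.9, 5.89, 44.7 and 46%) and 3, 6, 0, 0, 0 and 0 lower (5.4, 10.1, 2.1, 3.27, 6.04 and 5.65%), with 4 (10.3%) and 2 (2.29%) in both IL-4 comparisons and 23 (27.5%) for both treatments. With no filter, 47, 31, 41, 34, 90 and 90 of the 149 were higher (24.6, 24.9, 22.4, 22.7, 27.5 and 27.5%) and 21, 38, 10, 24, 10 and 19 lower (22.4, 24.1, 21.3, 22.6, 28 and 27.1%), with 23 (8.66%) and 11 (6.87%) in both IL-4 comparisons and 56 higher (10.8%) and 3 lower (9.74%) for both treatments. With 5 reads added, DMSO lower was 0 (5.44%), DMSO with IL-4 was 6 higher (8.76%) and 1 lower (7.61%), and MCSF lower was 1 (12.2%).

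Scaled by total reads, DMSO higher was 9 (10.8%) and LatA lower 2 (16.9%). Scaled by reads outside the largest sites, a setting chosen after seeing the data, DMSO higher was 9 (11.3%), LatA lower 2 (23.2%), MCSF 35 higher (19.3%) and 4 lower (23.4%), and both treatments 22 (7.39%). With the trend over mean reads removed, DMSO higher was 9 (10.1%), LatA 25 higher (19.2%) and 3 lower (19.8%), MCSF 30 higher (19.6%) and both treatments 15 (7.93%). Against the other IL-4 library as control, LatA was 64 higher (34.4%), MCSF 32 higher (24.9%) and 1 lower (15%), and both treatments 27 (14.4%). edgeR called 2 members lower with IL-4 (0.81%). Median-of-ratios factors moved no count by more than 1.5 times. The cause of these moves was not tested, except that fewer or more sites enter when the filter changes.

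Of the summed-read ratios of the windows, 34 moved beyond their counting interval and 94 did not. Of those that moved, 15 did so with the trend removed, 10 on the scale without the largest sites, 6 with the other control and 3 with total reads. The log2 IL-4 ratios of the sums kept their sign in all 4 windows under the settings run: Socs1 lay between 0.63 and 0.73 without DMSO and between 0.47 and 0.55 with it, and Stat6 between -0.27 and -0.16 and between -0.39 and -0.31. Of the ratios at named sites, 1026 stayed within their counting interval and 61 moved, 47 of them with the trend removed and 13 with the other control. One site changed sign: Cish chr9:107208461-107209886 for MCSF, from 0.64 to -0.38 with DMSO + IL-4 as control. Each group has 1 library, so no replicate block could be fitted; the edgeR model is blocked by DMSO. Leaving out a library was not possible within a ratio of 1 library to 1 other. Depth limits the weak sites most: at 20 normalized reads a library holds 16.2 to 27.0 reads.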
